A study of Mus musculus with 2 samples.

Results

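Prostaglandin production and reception were followed through 8 genes in the stroma of intestinal grafts. They were the cyclooxygenases Ptgs1 and Ptgs2, the terminal synthases Ptges, Ptgis and Ptgds, and the PGE2 receptors Ptger2, Ptger3 and Ptger4. The genes were taken by symbol, and all 8 were among the 28692 genes of both count tables. The donors were mid-gestation mouse embryos that carried EYFP in all their cells (strain EYFP (C57BL/6) in the labels, from EYFP sires and C57BL/6Nrj dams in the study's methods). Their small or large intestine was grown for 4 weeks under the kidney capsule of WT adults, and mesenchymal stromal cells (MSC) of graft origin were then collected. Live cells without CD45, Ter119, BP3, CD31, EpCAM or L1CAM and with Itgb1 and YFP were sorted, which selects graft stroma against blood, endothelial, epithelial, glial and host cells. A single droplet RNA library was made from colonic grafts (LI graft, 3 grafts pooled) and 1 from small intestinal grafts (SI graft, number of grafts not given in the sources used here). With 1 library per graft type no test between grafts is possible, so that intervals below cover counting error only and are 95% intervals.

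Prostaglandins are lipid signals made from arachidonic acid, which phospholipases release from membranes. Cyclooxygenases turn it into PGH2, with Ptgs1 encoding the form found in many resting cells and Ptgs2 the form induced by cytokines, growth factors and injury. Terminal synthases then make the end products: Ptges makes PGE2, Ptgis makes prostacyclin, a relaxant of vascular muscle, and Ptgds makes PGD2. PGE2 acts on receptors that raise cyclic AMP (Ptger2 and Ptger4) or mainly lower it (Ptger3), and in the gut mesenchymal PGE2 is known for its action on crypt epithelial cells and in repair.

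On build GRCm38 (GENCODE annotation) all 8 genes are protein coding. Ptgs1 (ENSMUSG00000047250) lies at chr2:36230426-36252272 on the plus strand and Ptgs2 (ENSMUSG00000032487) at chr1:150100031-150108227 on the plus strand. Of the synthases, Ptges (ENSMUSG00000050737) lies at chr2:30889471-30929863, Ptgis (ENSMUSG00000017969) at chr2:167191805-167240604 and Ptgds (ENSMUSG00000015090) at chr2:25466709-25470046, all 3 on the minus strand. Ptger2 (ENSMUSG00000037759) lies at chr14:44988195-45003820 and Ptger3 (ENSMUSG00000040016) at chr3:157566892-157645888, both on the plus strand, and Ptger4 (ENSMUSG00000039942) at chr15:5206661-5244187 on the minus strand. Genes on the opposite strand overlap Ptgs1 (Gm43621), Ptgis (1110018N20Rik and Gm14291), Ptger2 (Gm49364 and Gm17173) and Ptger4 (Ttc33 and Gm15937), and Gm13400 overlaps Ptges on the same strand, so that some of their reads could be counted with a neighbour.

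The sequence before the start of the cyclooxygenase pair is shown because these paralogs catalyse the same step and had unlike patterns across the stroma. RefSeq start regions (GRCm38.p6, 250 bases before to 50 after the start) were matched for 7 of the 8 genes, Ptgis being the exception. The 250 bases before each start follow, 5′ to 3′ on the gene's strand, from chr2:36230176-36230425 for Ptgs1 and chr1:150099781-150100030 for Ptgs2. The third line gives the first 30 transcribed bases of Ptgs2, chr1:150100031-150100060. Capitals mark a GC box (GGGCGG) in the upstream line and, in the third line, the core of a cyclic AMP response element (CGTCA) overlapping an E-box (CACGTG).
Ptgs1: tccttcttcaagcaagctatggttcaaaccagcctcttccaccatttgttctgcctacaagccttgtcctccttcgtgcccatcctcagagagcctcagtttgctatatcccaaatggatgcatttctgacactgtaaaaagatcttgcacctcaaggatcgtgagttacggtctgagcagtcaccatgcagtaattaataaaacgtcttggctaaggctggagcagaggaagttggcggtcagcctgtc
Ptgs2: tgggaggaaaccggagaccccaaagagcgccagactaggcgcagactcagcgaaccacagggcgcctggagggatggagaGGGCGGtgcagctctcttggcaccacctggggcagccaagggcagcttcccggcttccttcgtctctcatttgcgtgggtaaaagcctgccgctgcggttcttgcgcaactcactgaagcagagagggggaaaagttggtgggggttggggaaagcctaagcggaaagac
Ptgs2, first bases: agagtcaccactaCGTCACGTGgagtccgc
Both strands were searched over the whole 300 bases. The GC box began 170 bases before the Ptgs2 start, and CGTCA and CACGTG began at transcribed bases 14 and 17 of Ptgs2. Among the 7 genes, CACGTG and CGTCA were each in 1 (Ptgs2), GGGCGG in 4 (Ptgs2, Ptges, Ptger3 and Ptger4) and TATAAA in 0. Over 32851 start regions of the same length, CACGTG was in 7.15%, CGTCA in 20.8%, GGGCGG in 35.7% and TATAAA in 13.6%. The Ptgs1 window held none of these letters. A match describes the letters only.

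The LI library held 11568 barcodes with 63348069 unique molecular identifiers (UMIs) and the SI library 9631 barcodes with 54918006 UMIs, and 26 barcodes occurred in both. After filters and removal of likely doublets 8881 LI cells (median 5145 UMIs) and 7263 SI cells (median 5553 UMIs) remained. Levels are UMIs of a gene per 1000000 UMIs of a class of cells (CPM), and shares of cells with a UMI are given after each cell was thinned to 2000 UMIs. By Xist and Y-linked genes, 9.12% of LI cells and 24.3% of SI cells were called male, so that each library mixed cells of embryos of both sexes. A further 831 LI and 1476 SI cells had no clear call and enter no value given by sex. Each library may have been made with a 3′ or a 5′ kit, which the labels do not settle, and kit, host and graft type cannot be told apart. Despite the sort, 40 LI cells carried immune markers and 47 SI cells epithelial markers, and these stand in no stromal class. Clusters left unnamed, with 548 LI and 488 SI cells, are outside every class too. Among them were SI cluster 14, 52 cells led by the immune genes Igkc, Igha and Jchain, and LI cluster 16, 32 cells led by mesothelial and kidney tubule genes.

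Clusters were named from marker lists, and each name below means cells that are like that type. Both libraries held PDGFRAhi fibroblasts (FB; 672 LI and 343 SI cells), Fgfr2 FB (2017 and 1097), adventitial FB (367 and 1057), FB with MHC class II genes (530 and 480), FB of no single list (other FB, 2034 and 2105), pericytes (522 and 731), mural cells with both pericyte and smooth muscle markers (84 and 476) and smooth muscle cells (SMC, 420 and 407). Classes of at least 50 cells found in the LI library alone were CD81 FB (1250 cells) and interstitial cells of Cajal (ICC, 397 cells), the SI library having 32 ICC. LI ICC joined cluster 12 (257 cells, led by Kit, Prkcq and Ano1) and cluster 13 (140 cells, led by Lcn2, Hand1 and Fst), of which cluster 13 had no ICC marker among its top 10 genes and was 62.1% male. The FB classes together form the fibroblast lineage of 6870 LI and 5082 SI cells. Some shared names covered different clusters. LI adventitial FB were cluster 11, led by Cthrc1, Prg4, Ptx3 and Saa3 at a median of 14577 UMIs per cell, with no adventitial marker among its top 10 genes, while SI adventitial FB were cluster 3 (Pi16 and Igfbp6) and cluster 8 (Stmn4, Pcolce2 and Scara5) at a median of 7029 UMIs. MHC class II FB were cluster 7 in LI (Ctla2a, Fgfbp1 and Cxcl9) and cluster 5 in SI (Saa3 and Cd74). The other FB came mainly from clusters 2, 3 and 6 in LI and clusters 1, 4 and 7 in SI. CD81 FB were cluster 1, led by Myoc, Lpl and Angptl7, and had no marker of their own list among the top 10 genes. As an alternative free of clusters, each cell was also assigned singly, by its highest marker score (mean z-score over a list's genes), however small its lead, and 17.2% of LI and 13.6% of SI cells led by under 0.1. The CD81 and ICC scores then took 1338 and 582 LI cells but also 1275 and 404 SI cells, so that the absence of these classes from SI rests on the clusters, and no cell was placed between pericytes and SMC.

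**Figure D1:**
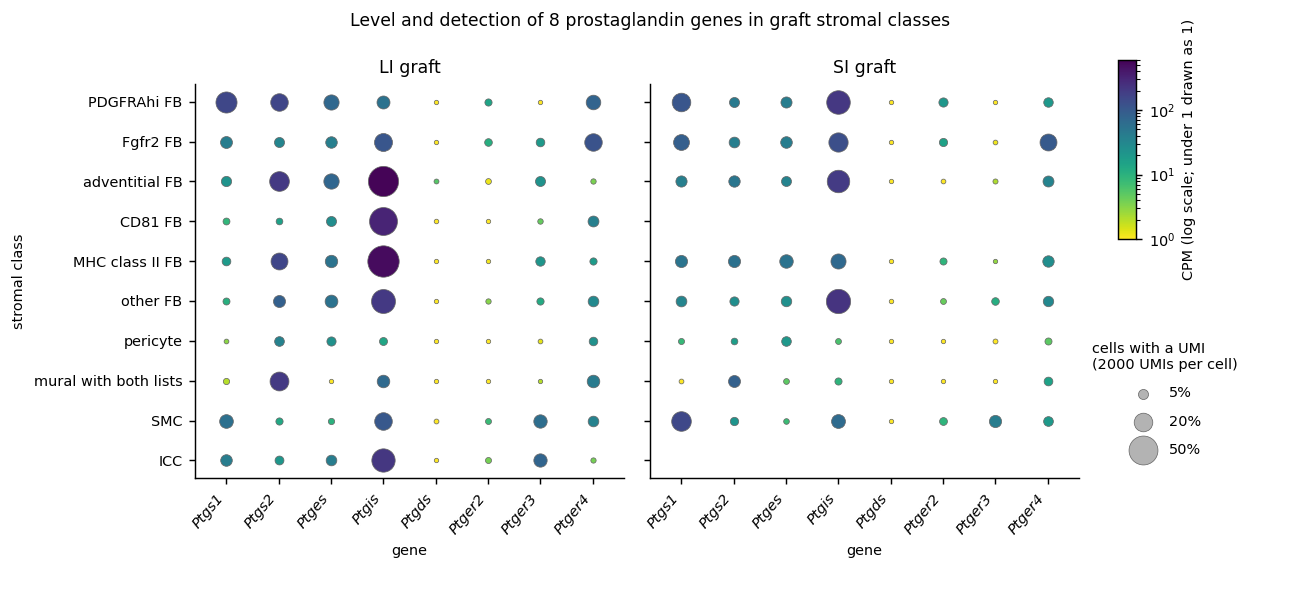
Level and detection of the 8 genes in stromal classes of at least 50 cells, LI graft on the left and SI graft on the right. Colour gives pooled CPM on a log scale and circle area the share of cells with a UMI at 2000 UMIs per cell. Ptgis has the largest circles, 54.8% of LI adventitial FB among them, and Ptgds is near 0 throughout.

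Ptgs1 was highest in PDGFRAhi FB of the LI graft and in SMC of the SI graft. Its LI levels were 154 CPM (141 to 168) in PDGFRAhi FB, 58.4 CPM in SMC, 41.2 CPM in ICC, 40.7 CPM in Fgfr2 FB, 22.4 CPM in adventitial FB, 18.7 CPM in MHC class II FB, 10.5 CPM in other FB, 8.84 CPM in CD81 FB, 3.04 CPM in pericytes and 2.04 CPM in mural cells with both lists. The SI levels were 151 CPM (136 to 167) in SMC, 107 CPM (92.4 to 122) in PDGFRAhi FB, 88.7 CPM in Fgfr2 FB, 51.8 CPM in MHC class II FB, 39.3 CPM in adventitial FB, 32.4 CPM in other FB, 8.30 CPM in pericytes and 0.838 CPM in mural cells. SMC and ICC, ICC and Fgfr2 FB, adventitial and MHC class II FB, other and CD81 FB, and pericytes and mural cells were LI neighbours with overlapping intervals. Overlap in the SI order was between PDGFRAhi and Fgfr2 FB and between adventitial and other FB. A Ptgs1 UMI was found in 26.1% of LI and 20.1% of SI PDGFRAhi FB, and in 10.3% of LI and 22.4% of SI SMC, against 0.210% of LI pericytes and 0.218% of SI mural cells, the classes with the lowest shares. Median depths were alike in these classes, 5004 and 5281 UMIs in PDGFRAhi FB against 4069 in LI pericytes and 4524 in SI mural cells. SMC and mural cells with both lists, which share muscle markers, stood at opposite ends of the SI order. Both SI clusters of SMC were high, at 144 CPM (126 to 163) and 167 CPM (140 to 197). When each cell was instead assigned by its own marker score, SI SMC fell to 91.2 CPM (83.1 to 99.8), level with SI PDGFRAhi FB at 90.4 CPM (80.7 to 101), while LI PDGFRAhi FB were still first at 113 CPM.

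Ptgs1 was lower in the LI than the SI graft in most fibroblasts. On the log2 scale (LI over SI, pseudocount 1 CPM) the lineage value was -0.72 (-0.82 to -0.62), from 30.6 CPM in LI and 51.2 CPM in SI. The class values were -1.11 in Fgfr2 FB, -1.42 in MHC class II FB, -1.54 in other FB and -1.36 in SMC, whereas PDGFRAhi FB had 0.53 (0.29 to 0.77). Among SI other FB, cluster 7 (Wif1, Col7a1 and Inhba) stood at 84.1 CPM and clusters 1 and 4 at 13.7 and 13.0 CPM.

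Ptgs2 had its highest class levels in LI adventitial FB (200 CPM, 188 to 213) and LI mural cells with both lists (200 CPM, 163 to 244). The order changed with how cells were assigned to classes: with each cell assigned singly, LI adventitial FB were at 91.7 CPM (84.9 to 99.0), below LI MHC class II FB at 161 CPM (152 to 171) and LI PDGFRAhi FB at 136 CPM (124 to 148). The next LI levels were 158 CPM in MHC class II FB, 157 CPM (144 to 170) in PDGFRAhi FB and 87.6 CPM in other FB. Lower LI levels were 36.5 CPM in pericytes, 32.5 CPM in Fgfr2 FB, 20.6 CPM in ICC (11.1 CPM in cluster 12 and 31.6 CPM in cluster 13), 16.0 CPM in CD81 FB and 13.0 CPM in SMC. The SI levels spanned a narrower range, with 84.6 CPM (73.3 to 97.1) in mural cells, 55.6 CPM in MHC class II FB, 49.2 CPM in adventitial FB, 44.3 CPM in PDGFRAhi FB, 40.1 CPM in Fgfr2 FB, 26.4 CPM in other FB, 22.1 CPM in SMC and 17.4 CPM in pericytes. Intervals of LI neighbours overlapped except at the steps from PDGFRAhi FB to other FB, from other FB to pericytes and from Fgfr2 FB to ICC. In SI order only the steps from mural cells to MHC class II FB and from Fgfr2 FB to other FB were free of overlap. At equal depth, 22.6% of LI and 6.80% of SI adventitial FB and 17.7% of LI and 5.03% of SI PDGFRAhi FB had a Ptgs2 UMI, against 1.56% of LI CD81 FB and 1.56% of SI pericytes, the lowest shares (median 5641 and 4223 UMIs). Positive cells carried several copies, 5.95 UMIs per positive cell in LI adventitial FB at their greater depth and 2.81 in LI PDGFRAhi FB. The low end of the LI order moved too in singly assigned cells. LI SMC were then at 83.8 CPM (75.8 to 92.4) and LI CD81 FB at 61.8 CPM (56.7 to 67.3). LI ICC at 28.5 CPM and LI other FB at 31.4 CPM were lowest. The low Ptgs2 of LI SMC and CD81 FB, with the CD81 FB share above, thus rests on the cluster-based classes.

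Within the LI graft the highest Ptgs2 level of any cluster of at least 50 cells was in cluster 6 of the other FB, at 250 CPM (234 to 266) in 531 cells. This cluster was led by Areg and Ereg, which encode epidermal growth factor receptor ligands, and by Il11 and Grem1. The remaining large other FB clusters of the LI graft were at 18.0 CPM (cluster 2) and 16.7 CPM (cluster 3). Fgfr2 FB were also uneven, with 41.1 CPM (36.5 to 46.1) in cluster 0 and 10.4 CPM (6.98 to 15) in cluster 4. In SI adventitial FB, Ptgs2 was 61.3 CPM in the Pi16 cluster and 30.2 CPM in the Scara5 cluster. Summed levels of a list of inflammatory and NF-kB genes moved with Ptgs2 only in part. They were 8630 CPM in LI adventitial FB, 7150 CPM in LI MHC class II FB and 5970 CPM in cluster 6. LI PDGFRAhi FB and LI mural cells with both lists, also high in Ptgs2, had 784 and 972 CPM. SI pericytes, the SI class lowest in Ptgs2, had the highest SI class level of this list, 5630 CPM. The list of immediate early and stress genes stood at 13000 CPM in LI adventitial FB and 33800 CPM in LI PDGFRAhi FB, against 31300 and 11900 CPM in the same SI classes. The part of either state in the Ptgs2 levels was not tested.

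**Figure D2:**
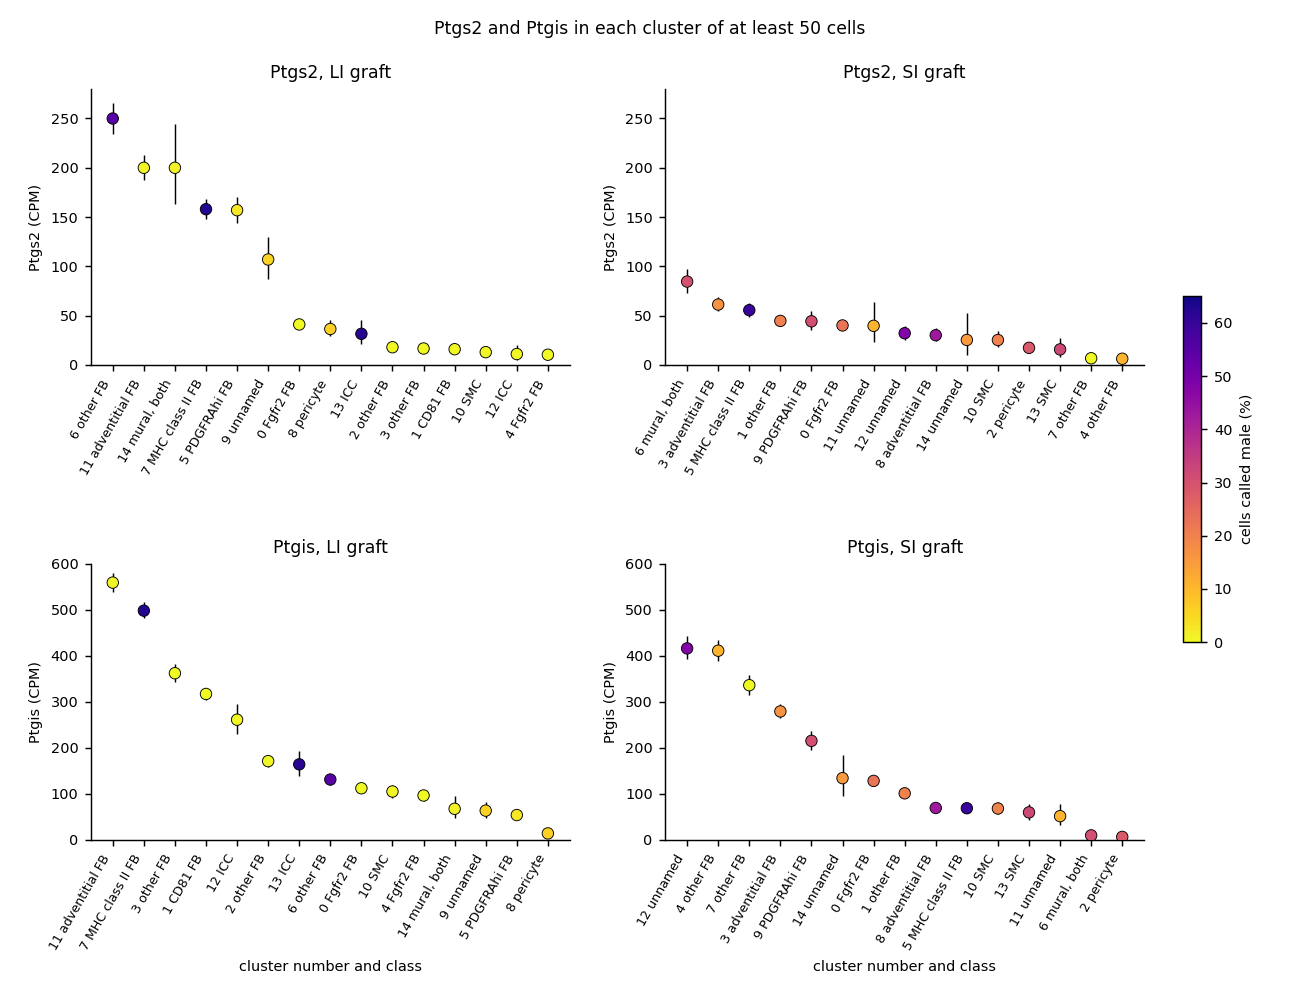
Pooled CPM of Ptgs2 (top) and Ptgis (bottom) in each cluster of at least 50 cells, ordered by level, with 95% counting intervals as lines and colour giving the share of cells called male. Ptgs2 reaches 250 CPM in LI cluster 6, of which 55.0% were male, and Ptgis has its highest LI value of 559 CPM in cluster 11 and lowest of 13.9 CPM in pericytes.

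Ptges, which encodes the inducible microsomal PGE2 synthase, was found in every fibroblast class and, by clusters, was lowest in SMC and in mural cells with both lists. Its LI levels were 74.1 CPM (66.8 to 82.1) in adventitial FB, 70.7 CPM (62.2 to 80.1) in PDGFRAhi FB, 54.3 CPM in other FB, 52.0 CPM in MHC class II FB, 40.6 CPM in ICC, 39.1 CPM in Fgfr2 FB, 26.6 CPM in CD81 FB, 24.3 CPM in pericytes and 10.2 CPM in SMC. None of the 84 LI mural cells with both lists had a UMI, and at 3 counts, the limit used for a count of 0, this allows up to 3.57% of cells with a UMI and up to 6.13 CPM. The SI levels were 52.2 CPM (45.6 to 59.6) in MHC class II FB, 41.1 CPM in PDGFRAhi FB, 40.8 CPM in Fgfr2 FB, 34.6 CPM in adventitial FB, 24.8 CPM in other FB, 19.6 CPM in pericytes, 7.65 CPM in SMC and 5.03 CPM in mural cells. Neighbours in both orders mostly overlapped, the exact interval of the LI mural cells, used for this, reaching up to 7.54 CPM. The exceptions were the steps from PDGFRAhi to other FB, from Fgfr2 to CD81 FB and from pericytes to SMC in LI, and from adventitial to other FB and from pericytes to SMC in SI. The mural cells with both lists were thus first or level with the first class in Ptgs2 and last in Ptges, with 0 Ptges UMIs in LI and 12 in SI (2.60 to 8.78 CPM), where the interval overlapped that of SMC. LI cluster 6 again led the clusters of at least 50 cells, at 125 CPM (115 to 137). A Ptges UMI was present in 13.2% of LI adventitial FB and 10.0% of SI MHC class II FB, against 0% of LI mural cells and 0.773% of SI SMC. With cells assigned singly, LI SMC were at 24.6 CPM (20.4 to 29.5), level with LI other FB at 21.7 CPM, and LI pericytes at 42.8 CPM. LI PDGFRAhi FB were then first at 63.1 CPM, and in SI the 98 other FB at 56.3 CPM (33.9 to 87.9). SI SMC were still last at 15.7 CPM.

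Ptgis, prostacyclin synthase, was high in most fibroblasts and ordered differently in the grafts. The LI levels ran from 559 CPM (539 to 580) in adventitial FB and 498 CPM (481 to 516) in MHC class II FB through 317 CPM in CD81 FB, 216 CPM in ICC, 210 CPM in other FB, 108 CPM in Fgfr2 FB, 105 CPM in SMC, 67.4 CPM in mural cells and 53.8 CPM (46.4 to 62.1) in PDGFRAhi FB to 13.9 CPM in pericytes. In SI order came other FB with 228 CPM (219 to 236), PDGFRAhi FB with 215 CPM (195 to 237), adventitial FB with 197 CPM (188 to 208), Fgfr2 FB with 128 CPM, MHC class II FB with 68.6 CPM (60.9 to 77.0), SMC with 65.2 CPM, mural cells with 9.63 CPM and pericytes with 6.29 CPM. PDGFRAhi FB were thus next to last in LI order and next to first in SI order. Overlapping neighbours were ICC and other FB, Fgfr2 FB and SMC, SMC and mural cells, and mural cells and PDGFRAhi FB in LI. The corresponding SI pairs were other and PDGFRAhi FB, PDGFRAhi and adventitial FB, MHC class II FB and SMC, and mural cells and pericytes. A Ptgis UMI was found in 54.8% of LI adventitial FB, 59.2% of LI MHC class II FB and 9.15% of LI PDGFRAhi FB at equal depth, with 29.9%, 12.8% and 32.9% in the same SI classes. The lowest shares were in pericytes, at 2.73% in LI and 0.936% in SI. With cells assigned singly, LI adventitial and MHC class II FB were at 371 CPM (357 to 386) and 362 CPM (348 to 377), LI PDGFRAhi FB were still low at 89.4 CPM, and SI ICC, at 292 CPM, came first in SI order. LI pericytes were then at 91.8 CPM (81.3 to 103), level with PDGFRAhi FB, and SI pericytes, still last, at 36.6 CPM. In LI ICC, Ptgis was 261 CPM in cluster 12 and 164 CPM in cluster 13.

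Clusters within a class differed too. SI adventitial FB held 279 CPM (264 to 295) of Ptgis in the Pi16 cluster and 69.2 CPM (60.2 to 79.2) in the Scara5 cluster. SI other FB held 411 CPM in cluster 4, 336 CPM in cluster 7 and 101 CPM in cluster 1, and the similarly marked LI cluster 3, which shares Kcnn3, Jam2 and Chodl with SI cluster 4 among its leading genes, held 362 CPM. SI cluster 12, left unnamed and led by Angptl7, Ctla2a and Cthrc1, was at 416 CPM (392 to 442). Of its leading genes, Ctla2a also led LI cluster 7, Cthrc1 LI cluster 11 and Angptl7 LI cluster 1, the clusters behind the highest LI class levels.

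Ptgds was close to absent from graft stroma. Its lineage level was 0.785 CPM in LI and 0.0925 CPM in SI, from 35 and 3 UMIs. LI adventitial FB reached 5.41 CPM, but 21 of its 27 UMIs came from 1 cell.

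Of the PGE2 receptors, Ptger4 was highest in Fgfr2 FB of both grafts. Its level there was 118 CPM (111 to 125) in LI and 100 CPM (92.4 to 109) in SI. The next LI levels were 78.8 CPM in PDGFRAhi FB, 42.9 CPM in mural cells, 38.4 CPM in CD81 FB, 36.2 CPM in SMC, 29.7 CPM in other FB, 24.3 CPM in pericytes, 18.2 CPM in MHC class II FB, 3.79 CPM in ICC and 3.61 CPM in adventitial FB. After Fgfr2 FB the SI levels were 34.0 CPM in adventitial FB, 30 CPM in other FB, 25.9 CPM in MHC class II FB, 19.7 CPM in PDGFRAhi FB, 19.3 CPM in SMC, 15.1 CPM in mural cells and 5.03 CPM in pericytes. Singly assigned cells gave other values at the low end, with 31.5 CPM (27.6 to 35.9) in LI adventitial FB and 28.1 CPM in LI ICC, while Fgfr2 FB were still first at 108 CPM in LI and 94.0 CPM in SI. In the order of the cluster-based classes, the first 2 steps of the LI order, the step from MHC class II FB to ICC, the first step of the SI order and its last were free of interval overlap. A Ptger4 UMI was in 17.6% of LI and 16.4% of SI Fgfr2 FB, against 0.524% of LI ICC and 1.87% of SI pericytes. Ptger4 was itself among the leading genes of LI cluster 0, the larger of the LI Fgfr2 FB clusters, which had 139 CPM (130 to 147) against 64.3 CPM (55.2 to 74.5) in cluster 4. The genes described here were kept out of the clustering.

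Ptger3 was highest in ICC and SMC of the LI graft and in SMC of the SI graft. LI levels were 76.4 CPM (64.3 to 90.1) in ICC, from 92.8 CPM in cluster 12 and 57.3 CPM in cluster 13, and 61.6 CPM (51.6 to 73.1) in SMC, followed by 22.8 CPM in adventitial FB, 21.5 CPM in MHC class II FB, 19.2 CPM in Fgfr2 FB, 12.3 CPM in other FB, 4.56 CPM in CD81 FB, 2.04 CPM in mural cells, 1.30 CPM in pericytes and 0.859 CPM in PDGFRAhi FB. The SI levels were 41.1 CPM (33.5 to 49.9) in SMC and 11.2 CPM in other FB, with 2.85 CPM in MHC class II FB, 2.17 CPM in adventitial FB, 1.18 CPM in Fgfr2 FB, 0.755 CPM in pericytes, 0.533 CPM in PDGFRAhi FB and 0.419 CPM in mural cells. Apart from the steps from SMC to adventitial FB, from Fgfr2 to other FB and from other to CD81 FB in LI, and from SMC to other FB and other to MHC class II FB in SI, neighbours overlapped. PDGFRAhi FB had 3 Ptger3 UMIs in LI and 1 in SI in all. A Ptger3 UMI was found in 9.69% of LI ICC, 9.80% of LI SMC and 7.99% of SI SMC, against 0% of LI mural cells and of SI MHC class II FB. Assigning each cell by its own score gave 22.9 CPM (19.0 to 27.5) in SI SMC, level with 27.4 CPM (20.5 to 36.0) in the 404 SI cells then called ICC. In LI it gave 58.2 CPM (49.1 to 68.5) in ICC, 33.6 CPM (28.6 to 39.2) in SMC and 23.9 CPM (20.4 to 28.0) in MHC class II FB. SI other FB were uneven, with 30.7 CPM (24.4 to 38.1) in cluster 7, 8.86 CPM in cluster 4 and 4.93 CPM in cluster 1.

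Ptger2 was low throughout, with its highest level among the cluster-based classes in PDGFRAhi FB of both grafts. Its levels in PDGFRAhi FB were 14.3 CPM (10.6 to 18.9) in LI and 20.3 CPM (14.3 to 27.8) in SI, and in Fgfr2 FB 10.9 and 15.3 CPM. SMC had 7.88 CPM in LI and 9.26 CPM in SI, and SI MHC class II FB had 9.26 CPM against 1.16 CPM in LI. The further LI classes held from 0 CPM in mural cells to 3.79 CPM in ICC, and the further SI classes from 0 CPM in mural cells to 4.45 CPM in other FB. All LI neighbours overlapped in their intervals, and in SI all but the steps from SMC to other FB and from other to adventitial FB. At equal depth 1.98% of LI and 4.03% of SI PDGFRAhi FB had a UMI, against 0% of LI MHC class II FB and of SI pericytes (0.943% and 0.274% before thinning). With cells assigned singly, LI PDGFRAhi FB were still first at 13.0 CPM. SI Fgfr2 FB, at 15.9 CPM (13.0 to 19.4), were level with SI PDGFRAhi FB at 14.4 CPM (10.7 to 18.9). MHC class II FB were then at 2.88 CPM in LI and 4.58 CPM in SI.

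Counted over cluster-based classes of at least 50 cells in both grafts, 3 of the 7 genes at 10 CPM or more had the same top class in both. They were Ptger2, Ptger3 and Ptger4, beside a share of 38.1% of all such genes. Leads over the next class were counted among all classes of at least 50 cells of each graft, so that ICC entered in LI alone. A lead of at least 2-fold was held by 1 of 7 genes in LI (Ptgs1 in PDGFRAhi FB, log2 lead 1.38), beside 9.56% of all genes. In SI it was held by 2 of 7 (Ptger3 in SMC, 1.79, and Ptger4 in Fgfr2 FB, 1.53), beside 8.83% of all genes. These counts are not compared, since the class sets differ: LI Ptger3 in SMC (61.6 CPM) was below ICC (76.4 CPM) but more than 2-fold above the next class, adventitial FB (22.8 CPM). That gap was smaller in singly assigned cells, with 33.6 CPM in LI SMC and 23.9 CPM in LI MHC class II FB. For Ptgs2 the LI top class was level with the next, mural cells with both lists, which were first in SI.

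Between the grafts, 2 of 6 genes at 10 CPM or more in the fibroblast lineage were at least 2-fold higher in LI and 0 higher in SI, where 3.82% of all genes passed that fold in either direction. Ptgs2 was at 91.3 CPM (88.5 to 94.1) in LI and 39.2 CPM (37.1 to 41.4) in SI, a log2 ratio of 1.20 (1.11 to 1.29). Ptger3 was at 14.1 and 5.49 CPM, with 1.22 (1.01 to 1.43). Both calls were close to the limit: in female cells neither passed (0.95 and 0.53), Ptgs2 was at 0.95 at a clustering resolution of 1.6, and Ptger3 was at 0.87 at resolution 0.4, 0.80 with 15 components and 0.87 with a pseudocount of 5 CPM. The remaining lineage ratios were 0.51 for Ptges, 0.58 for Ptgis and 0.22 for Ptger4. Ptger2, below the minimum level, had -0.48.

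In PDGFRAhi FB, 3 of 6 genes passed 2-fold beside 11.0% of all genes, which had a median log2 ratio of -0.15 there. Ptgs2 was higher in LI by 1.80 (1.47 to 2.14) on the log2 scale and Ptger4 by 1.94 (1.46 to 2.45), while Ptgis was lower in LI with -1.98 (-2.23 to -1.73). Singly assigned PDGFRAhi FB gave 1.98, 1.33 and -1.32 for these genes. In adventitial FB, 5 of 6 genes passed beside 17.5% of all genes: Ptgs2 with 2.0 (1.84 to 2.18), Ptges with 1.08, Ptgis with 1.5 and Ptger3 with 2.91 were higher in LI and Ptger4 with -2.92 (-3.50 to -2.35) was higher in SI. Among singly assigned adventitial FB (903 LI and 698 SI cells) 3 of these calls were lost, with Ptgs2 at 0.91 (0.70 to 1.12), Ptges at 0.59 (0.35 to 0.84) and Ptger4 at -0.11 (-0.39 to 0.17), and Ptgis was at 1.07 and Ptger3 at 2.42. For MHC class II FB the count was 4 of 6 beside 19.7% of all genes, with Ptgs2 at 1.49, Ptgis at 2.84 (2.67 to 3.02) and Ptger3 at 2.54 on the LI side and Ptgs1 at -1.42 on the SI side. In the male cells of this class (333 LI and 287 SI) Ptgs2 fell below 2-fold, at 0.95 (0.70 to 1.20), while Ptgis was at 3.05, Ptger3 at 2.25 and Ptgs1 at -1.41. In singly assigned MHC class II FB Ptgs1 was below 2-fold at -0.86 (-1.19 to -0.53) and Ptgis smaller at 1.25 (1.13 to 1.37), with Ptgs2 at 1.75 and Ptger3 at 2.21. These last classes hold different clusters in the grafts, as given above, and mesothelial markers summed to 115 CPM in LI and 3.56 CPM in SI MHC class II FB, and to 69.3 and 63.3 CPM in adventitial FB. The part of these differences in the ratios was not tested.

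Fgfr2 FB had 2 of 7 genes past 2-fold beside 5.07% of all genes. Ptger3 was higher in LI with 3.21 (2.52 to 3.80), from 190 UMIs in LI and 7 in SI, and Ptgs1 was higher in SI with -1.11. With cells assigned singly Ptger3 was at 2.27 and Ptgs1, at -0.75 (-0.95 to -0.56), no longer passed. In the cluster-based Fgfr2 FB Ptgs2 had -0.30 and Ptger4 0.23. Singly assigned Fgfr2 FB gave 0.36 (0.14 to 0.58) for Ptgs2, of opposite sign, and 0.20 for Ptger4. Other FB had 3 of 6 past 2-fold beside 3.75%, with Ptgs2 at 1.69 and Ptges at 1.10 toward LI and Ptgs1 at -1.54 toward SI. The LI level of both genes differed between clusters, cluster 6 being highest: its Ptges level was 125 CPM, against 19.6 and 27.4 CPM in LI clusters 2 and 3, and in female other FB the ratios were -0.19 for Ptgs2 and -0.02 for Ptges. Ptgs1 was at -1.95 (-2.28 to -1.63) in female other FB and at -0.23 (-0.97 to 0.51) in male other FB. The 222 LI and 98 SI cells that stayed other FB when assigned singly had ratios of opposite sign for Ptgs2, -0.97 (-1.83 to -0.08), and Ptges, -1.33 (-2.31 to -0.35). Red cell transcripts were at 150 CPM in SI other FB and 0.932 CPM in LI other FB.

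Both mural classes had higher LI than SI levels of Ptgs2, Ptgis and Ptger4. Pericytes had 3 of 4 genes past 2-fold beside 5.24% of all genes, with Ptgs2 at 1.03 (0.57 to 1.49), Ptgis at 1.03 (0.31 to 1.75) and Ptger4 at 2.07 (1.40 to 2.75). The Ptgs2 and Ptgis ratios lay close to the limit. By clusters, pericytes were the lowest class for Ptgis in both grafts (32 LI and 25 SI UMIs) and for Ptgs2 in SI. The part of free RNA from other cells in these values was not tested. The mural cells with both lists had 3 of 3 beside 14.8%, with Ptgs2 at 1.23, Ptgis at 2.69 and Ptger4 at 1.45, although only 84 LI cells stood behind these values. Endothelial markers summed to 135 CPM in LI and 69.9 CPM in SI pericytes. SMC had 1 of 6, Ptgs1 at -1.36 (-1.66 to -1.07), beside 7.32%. All 3 pericyte ratios and that of Ptgs1 in SMC passed 2-fold in singly assigned cells too (1.40, 1.31, 1.72 and -1.25), but Ptgs2 in SMC turned from -0.73 to 1.0 (0.76 to 1.24).

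**Figure D3:**
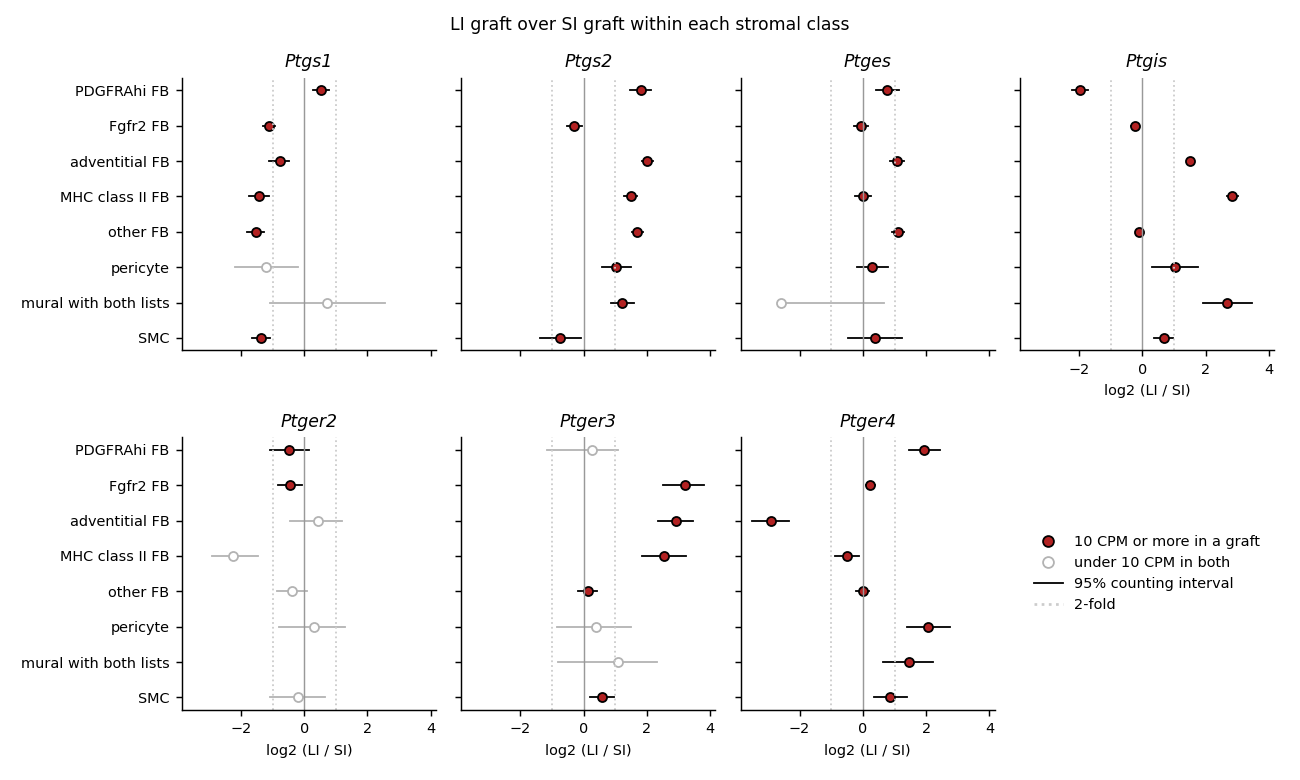
Log2 ratio of LI over SI level for 7 genes in each class of at least 50 cells in both grafts, with 95% counting intervals. Filled points are genes at 10 CPM or more in a graft, open points are under it, and dotted lines mark 2-fold. Ptgis runs from -1.98 in PDGFRAhi FB to 2.84 in MHC class II FB, and Ptger4 from -2.92 in adventitial FB to 2.07 in pericytes.

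Male and female cells necessarily came from different embryos and were spread unevenly over the clusters. Male cells made up 55.0% of LI cluster 6, 62.8% of LI MHC class II FB and 59.8% of SI MHC class II FB, but at most 2.68% of each further LI fibroblast cluster. Most of the remaining cells of these 3 clusters had no clear call. Cells called female were 37 of the 531 in LI cluster 6, 4.34% of LI and 9.17% of SI MHC class II FB. Among female cells 0 of 6 genes passed 2-fold in the lineage beside 3.15% of all genes, and among male cells 5 of 6 did beside 14.2%. Ptgs2 was at 63.0 CPM in LI and 32.1 CPM in SI female cells, a log2 ratio of 0.95 (0.82 to 1.09), and at 170 and 44.7 CPM in male cells, with 1.91 (1.75 to 2.07). The ratio of Ptger3 was 0.53 (0.28 to 0.78) in female and 2.64 (2.12 to 3.13) in male cells. Ptgis had 0.14 in female and 1.56 in male cells. For Ptger4 the sign differed, with 0.44 (0.32 to 0.56) in female and -1.27 (-1.58 to -0.97) in male cells. The male ratios set unlike classes side by side. Of 652 LI male lineage cells, 333 were MHC class II FB, 292 were in cluster 6 and 1 was an Fgfr2 FB. The 1176 SI male lineage cells held 248 Fgfr2 FB. The part of class make-up in the male ratios was not tested.

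Within single classes the female cells gave a mixed picture. In female other FB, Ptgs2 was 21.4 CPM in LI and 24.6 CPM in SI (-0.19, -0.46 to 0.08), and in male other FB, which in LI were mostly cluster 6, it was 258 and 23.2 CPM (3.42, 3.0 to 3.86). Ptges in the same cells was 24.9 and 25.2 CPM in females (-0.02, -0.28 to 0.25) and 130 and 26.8 CPM in males (2.23, 1.82 to 2.67). Female PDGFRAhi FB kept the higher LI level of Ptgs2 (2.20, 1.63 to 2.83) and the lower LI level of Ptgis (-2.26, -2.56 to -1.97). Female adventitial FB, in the cluster-based class, had 2.19 for Ptgs2, 1.28 for Ptgis and -2.87 for Ptger4, and female mural cells with both lists had 1.28 for Ptgs2. Sex and donor embryo cannot be told apart.

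**Figure D4:**
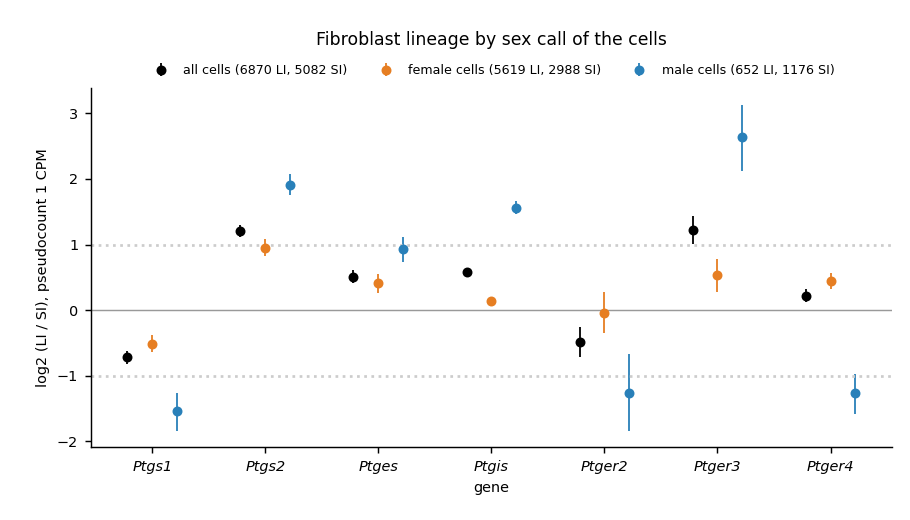
Log2 ratio of LI over SI level in the fibroblast lineage for 7 genes, from all cells, from cells called female and from cells called male, with 95% counting intervals and dotted lines at 2-fold. Ptgs2 is at 1.20 in all, 0.95 in female and 1.91 in male cells, and Ptger4 changes sign between female and male cells.

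Over the whole LI lineage, Ptges was detected more often in cells with a Ptgs2 UMI than in cells without. Among LI lineage cells thinned to 2000 UMIs, 543 had a Ptgs2 UMI and 6078 had none, and Ptges was found in 17.1% (14.1 to 20.6) of the former and 7.37% (6.73 to 8.06) of the latter. For LI other FB, in which cluster 6 was high in both genes, the shares were 25.0% (18.3 to 32.7) and 7.44% (6.28 to 8.75). Within the further LI classes the intervals overlapped, with 20.7% (13.7 to 29.2) and 11.3% (8.75 to 14.3) in PDGFRAhi FB, 18.2% and 11.7% in adventitial FB, 9.18% and 6.86% in Fgfr2 FB, 9.88% and 8.01% in MHC class II FB, and 0 of 19 cells and 5.10% in CD81 FB. SI shares were closer, 9.40% (6.17 to 13.6) of 266 cells with Ptgs2 and 6.07% (5.40 to 6.80) of 4612 cells without, and these intervals overlapped. Prostacyclin synthase did not follow: Ptgis was found in 29.8% of LI cells with Ptgs2 and 32.5% of those without, and in 18.0% and 29.3% of SI cells. Ptgs1 was detected in 10.3% and 5.82% of LI cells with and without Ptgs2, and within LI PDGFRAhi FB in 35.3% (26.7 to 44.8) and 24.1% (20.5 to 27.9), intervals that overlapped. In LI Fgfr2 FB (4.08% and 7.72%) and adventitial FB (3.90% and 5.68%) the Ptgs1 share was lower in cells with Ptgs2, again with overlapping intervals. In SI the Ptgs1 shares lay apart, at 13.9% (9.99 to 18.7) and 8.61% (7.81 to 9.45) over the lineage and at 60% (32.3 to 83.7) of 15 cells and 18.0% (13.7 to 23.0) of 283 cells in PDGFRAhi FB. With cells thinned to 1000 UMIs the Ptgs1 intervals overlapped in the LI lineage, at 4.04% (2.28 to 6.58) and 2.90% (2.51 to 3.34), in the SI lineage, at 7.43% (3.77 to 12.9) and 4.65% (4.08 to 5.28), and in SI PDGFRAhi FB, at 20% (4.33 to 48.1) and 9.40% (6.44 to 13.2). The LI lineage shares of Ptges were still apart at that depth, at 9.70% (6.89 to 13.2) and 4.13% (3.66 to 4.64). Inflammatory genes had a mean of 5950 CPM in LI cells with Ptgs2 and 2190 CPM in those without, and 5180 and 2560 CPM in SI. Within LI PDGFRAhi FB these means were 828 and 725 CPM. Immediate early and stress genes had 31000 and 29200 CPM in LI and 38100 and 24600 CPM in SI. Lineage shares mix classes that differ in both genes, and cells of 1 library are not replicates.

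PDGFRAhi FB hold subsets marked by Cd9 and Thbd, which encode a tetraspanin and thrombomodulin. Of the LI cells, 154 had Cd9 without Thbd and held 216 CPM (185 to 251) of Ptgs2, and 125 had Thbd without Cd9 and held 89.9 CPM (68.1 to 116). The SI subsets of 63 and 93 cells were in the same order, at 82.8 CPM (57.0 to 116) and 28.1 CPM (15.7 to 46.3). Ptgis had the opposite order, 39.6 CPM (27.1 to 55.8) against 96.2 CPM (73.6 to 124) in LI and 168 CPM (130 to 213) against 243 CPM (203 to 289) in SI, where the intervals met. Ptgs1 was at 158 and 150 CPM in LI and 113 and 118 CPM in SI, with overlapping intervals. Cells with neither marker, the largest LI subset at 295 cells, held 174 CPM (154 to 195) of Ptgs2. These values moved with the depth to which cells were thinned. At 1000 UMIs per cell the LI cells with Cd9 alone held 138 CPM (109 to 173) of Ptgs2, below the cells with neither marker at 185 CPM (167 to 203) and above those with Thbd alone at 66.8 CPM (46.8 to 92.4), and their Ptgs1 was 142 CPM against 96.4 CPM. The SI values of Ptgs2 were then 65.8 CPM (41.7 to 98.7) and 36.8 CPM (21.1 to 59.8), which overlapped.

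A list of further prostanoid genes had 25 of 26 symbols in the files, of which 17 reached 10 CPM in a stromal class. In the lineage 1 of 14 at that level passed 2-fold between grafts, Ptger1, the calcium-linked PGE2 receptor, with 17.4 CPM in LI and 6.88 CPM in SI (log2 1.22, 1.03 to 1.42), beside the 3.82% of all genes. Ptger1 was highest in SMC, at 76.5 CPM in LI and 29.0 CPM in SI, with Fgfr2 FB next at 50 and 14.8 CPM. Upstream, Pla2g4a, which encodes the cytosolic phospholipase that frees arachidonic acid, was highest in PDGFRAhi FB of both grafts, at 246 CPM in LI and 235 CPM in SI, against lineage levels of 70.2 and 73.4 CPM. The class highest in Pla2g4a was thus also first or next to first in Ptgs1. The secreted phospholipase Pla2g2e was at 26.1 CPM in SI and 1.20 CPM in LI adventitial FB, and Plaa, which encodes a phospholipase activating protein, stayed between 18.4 and 42.1 CPM.

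Breakdown had its own pattern. Hpgd, the dehydrogenase that inactivates PGE2, was at 206 CPM in LI and 189 CPM in SI other FB, and was among the leading genes of LI cluster 2 and SI cluster 1 in that class. In LI adventitial and MHC class II FB, where Ptgs2 was high, Hpgd was at 8.62 and 6.77 CPM, against 89.7 and 110 CPM in the same SI classes. LI PDGFRAhi FB, also high in Ptgs2, had 121 CPM of Hpgd. Fgfr2 FB had the reverse, 172 CPM in LI and 44.7 CPM in SI. The prostaglandin importer Slco2a1 was at 26.2 CPM in LI and 9.20 CPM in SI adventitial FB and at 8.88 and 22.4 CPM in PDGFRAhi FB. Ptgr1 and Ptgr2, reductases of prostaglandin breakdown products, and Cbr3, a carbonyl reductase, had lineage levels of 22.6 and 28.3, 20.6 and 24.9, and 29.3 and 32.7 CPM in LI and SI.

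The synthases of other routes were even. Ptges2 was at 17.1 CPM in both lineages and Ptges3, a co-chaperone also counted as a cytosolic PGE2 synthase, at 139 and 134 CPM. Cbr1, Akr1b3 and Fam213b, linked to PGF2 alpha synthesis, had lineage ratios of 0.16, -0.03 and 0.10 on the log2 scale. The prostacyclin receptor Ptgir was highest in mural cells, at 50.9 CPM in LI and 65.9 CPM in SI pericytes and 83.8 and 99.7 CPM in mural cells with both lists, the classes in which Ptgis was at or near its lowest in the SI graft. Tbxa2r, the thromboxane receptor, was at 15.3 and 11.4 CPM in the lineages, and Ptgfr, the receptor for PGF2 alpha, did not exceed 14.8 CPM in any class. Genes under 10 CPM in every class were Pla2g4c, Pla2g5, Pla2g10, Hpgds, Tbxas1, Abcc4, Ptgdr and Ptgdr2, so that both the haematopoietic PGD2 synthase and the PGD2 receptors were near or at 0.

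**Figure D5:**
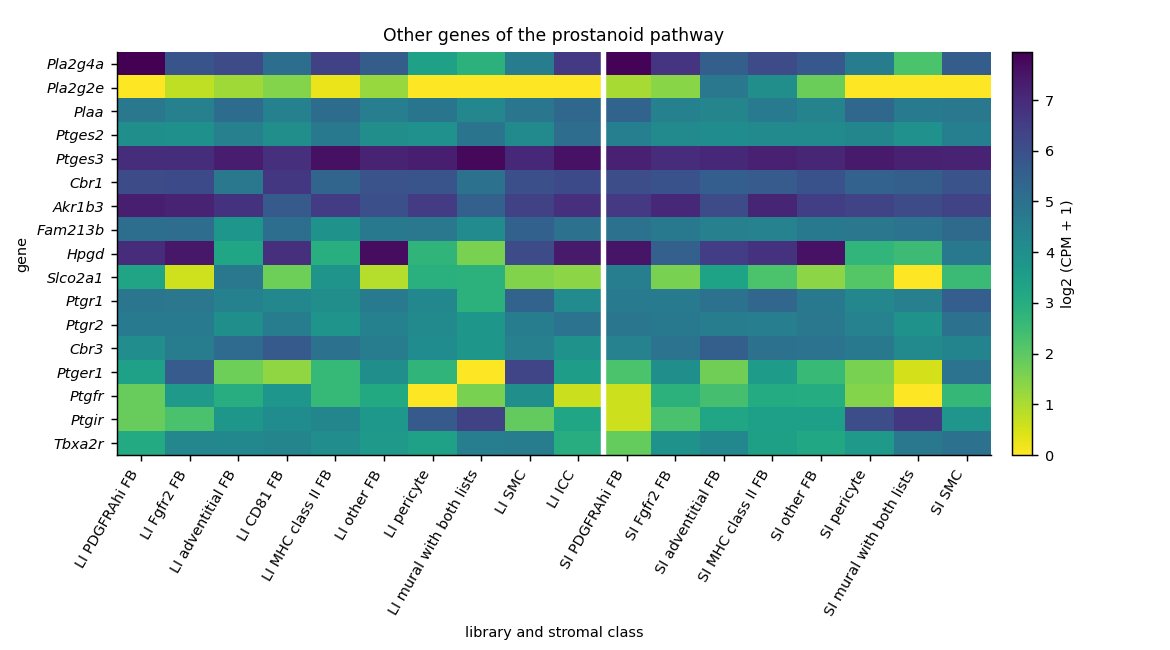
Levels of 17 further prostanoid genes as log2 of CPM plus 1 in each stromal class of at least 50 cells, LI classes left of the white line and SI classes right of it. Pla2g4a is darkest in PDGFRAhi FB (246 and 235 CPM), Hpgd in other FB, and Ptgir in pericytes and mural cells.

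Across the 18 class by library profiles, the 3 genes most like each of 7 members were found by Pearson correlation of log2(CPM + 1), a description over profiles that share libraries and depth. Ptgs1 was closest to Flnc (r = 0.892), Fmnl2 (0.886) and Ghr (0.864). Ptgs2 had weaker likeness to any gene, with Skil (0.791), Eif1a (0.779) and Rabepk (0.758) first. The terminal synthase Ptges was closest to Golm1 (0.937), Bloc1s2 (0.933) and Gpr153 (0.929), and Ptgis to Tmem150a (0.941), P3h4 (0.918) and Plpp5 (0.903). For Ptger2 they were Adamdec1 (0.924), Scube1 (0.924) and Tmem176b (0.921), Adamdec1 being a marker used to name Fgfr2 FB. Ptger3 was closest to Scx (0.901), Htr2b (0.846) and Chrdl2 (0.822), and Ptger4 to Sox9 (0.872), Pde12 (0.862) and Jund (0.827). Between the members the highest value was 0.862 for Ptgs1 and Ptger2, with 0.511 for Ptgis and Ptger3, and the cyclooxygenases had -0.212 with each other.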

How the data were processed

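Raw UMI counts per gene and barcode from 2 droplet libraries were used as the authors deposited them. Per the submitters' processing notes they used Cell Ranger 3.1.0, build mm10 and Seurat 3, and the gene annotation release and the kit of each library are not given in the sources used here. A label field of both samples speaks of adult stroma at homeostasis, whereas titles, tissue and treatment fields name grafts. No author annotation of cells was used.

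Cells were kept from 500 detected genes upward and up to 10% mitochondrial UMIs (9873 LI and 7910 SI). Scrublet (scanpy 1.11.5) made 0 calls of its own in either library, and the top-scoring barcodes were taken out in its place, at 0.8% per 1000 barcodes (1071 and 742 marked). Each library was clustered alone in Seurat 5.3.0 (R 4.3.3, Matrix 1.6.5; 2000 variable genes without prostanoid, sex-linked and mitochondrial genes, cell cycle regressed, 30 components, 20 neighbours, resolution 0.8). A cluster was named when at least 3 markers were detected in 10% of its cells and the list's mean log2 enrichment (pseudocount 10 CPM) was at least 1 with a lead of 0.5 over the next list, or 0.5 and 0.3 among fibroblast lists; these limits were set after the clusters were seen. Clusters below their library's median depth divided by 3 with no own leading marker stayed unnamed. Sex was called per cell from Xist and Y-linked UMIs.

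UMIs were summed per class and library. CPM have exact Poisson, shares exact Clopper-Pearson and log2 ratios (pseudocount 1 CPM) exact binomial-split 95% intervals. UMIs count molecules, but intervals cover counting error only. A gene was counted as apart at a log2 ratio of at least 1 in size with 10 CPM or more in 1 library. A count of 0 was bounded at 3 UMIs or 3 cells. The ratio step was tested on simulated counts. Python 3.11.15 with numpy 2.4.6, scipy 1.17.1, pandas 2.3.3 and matplotlib 3.10.9, and edgeR 4.0.16 for scaling factors only, were used, and 16 alternatives were run. Named genes were the 8 members, the listed prostanoid genes at 10 CPM or more in a class, and the 3 genes most correlated with each member. Members and lists were chosen with earlier results of these data known.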

Additional observations from a re-analysis of the deposited data

Results flagged for a closer look

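The LI over SI ratio of Ptgis was positive in MHC class II FB, at 2.84 on the log2 scale, and negative in PDGFRAhi FB, at -1.98, and was picked out because the same contrast ran in opposite directions in 2 classes. The same held for Ptger4, at 2.07 in pericytes and -2.92 in adventitial FB. With cells assigned singly, Ptgis was at 1.25 and -1.32 in those classes, whereas Ptger4 was at 1.72 and -0.11 (-0.39 to 0.17), so that its opposite directions rest on the cluster-based class. With 1 library per graft type the difference between classes was not tested. Ptgds, near 0 in stroma, appeared in cells outside the stromal classes. LI cluster 16, a set of 32 cells with mesothelial and kidney tubule genes in the lead, had 342 CPM from 83 UMIs in 7 cells. SI cluster 15, the 47 cells named epithelial, had 66.1 CPM from 36 UMIs in 5 cells. The cells with Ptgds carried a median of 93.0 kidney tubule marker UMIs in LI cluster 16 and 96.0 in SI cluster 15, against 0 in the cells without it, and 4 and 2 mesothelial marker UMIs against 36.0 and 38.0. In SI cluster 15 the cells with Ptgds had a median of 2 epithelial marker UMIs, against 51.5 in the rest.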

How the results depend on the processing

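No paired analysis was possible because each graft type had 1 library and the labels give no replicate numbers. The count of genes with the same top class in both grafts was 3 of 7, and it was 1 under the looser cell filter (200 genes, 20% mitochondrial UMIs) and 1 of 5 in male cells. The 2 genes past 2-fold in the lineage became 1 at resolution 0.4, at resolution 1.6, with 15 components and with a pseudocount of 5 CPM, 0 in female cells and 5 in male cells. Ptgs2 fell below 2-fold at resolution 1.6 (0.95) and Ptger3 at resolution 0.4 (0.87), with 15 components (0.80) and with the larger pseudocount (0.87). The further prostanoid genes past 2-fold were 1, with 2 when each cell was gated by its own marker score, 3 in male cells, 0 at a pseudocount of 5 CPM and 2 at a minimum of 1 CPM. A 2-fold lead of 1 class was held by 1 gene in LI, and by 5 of 6 in male cells, and by 2 genes in SI, and by 1 with 15 components or gating. Among the values of single genes, 133 of the levels moved by less than their interval and 27 by more, and 57 ratios against 27. Gating cells singly gave 91.7 CPM for Ptgs2 in LI adventitial FB. Thinning to 1000 UMIs gave 138 CPM for Ptgs2 in LI PDGFRAhi FB with Cd9 alone. All 4 co-detection shares moved at 1000 UMIs. Gating also gave 91.2 CPM for Ptgs1 in SI SMC. No ratio past 2-fold in the whole lineage changed sign under the alternatives run, but in other FB those of Ptgs2 and Ptges did in female cells (-0.19 and -0.02) and on gating (-0.97 and -1.33). The causes were not tested. With 1 library per graft type, counting intervals are the only error available, and mural cells with both lists in LI rest on 84 cells.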
